A study of Mus musculus with 21 samples.

Results

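Small leucine-rich proteoglycans are secreted matrix proteins, and 9 of their genes (Fmod, Lum, Dcn, Bgn, Ogn, Omd, Prelp, Aspn and Podn) were followed here among the 24454 genes of an RNA-seq table from mouse embryonic fibroblasts (MEFs). The genes were taken by symbol as a family, which was chosen by its read counts in the same libraries, where Fmod was low upon Rtel1 deletion and upon TMPyP4 treatment. Values from both of those comparisons are therefore given as a description, with no test for any of the 9 genes. All 9 genes passed the filter on low counts, although Lum passed it through the Trf1f/f libraries alone, where it was high enough to count.

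These proteins have a core of leucine-rich repeats that binds collagen fibrils, and most carry chondroitin, dermatan or keratan sulfate chains. They set the spacing and diameter of collagen fibrils, hold growth factors such as TGF-β in the matrix, and are used as markers of connective tissue fibroblasts, tendon, cartilage and bone. The family is divided by sequence into classes. Dcn (decorin), Bgn (biglycan) and Aspn (asporin) are class I, Fmod (fibromodulin), Lum (lumican), Prelp and Omd (osteomodulin) are class II, Ogn (osteoglycin, or mimecan) is class III and Podn (podocan) is class V.

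The 21 libraries fell into 7 groups of 3. Rtel1f/f MEFs, whose Rtel1 allele is removed by Cre, were infected with an adenovirus that carried GFP (Ad-GFP) or Cre (Ad-Cre), and RNA was taken 96 h later; RTEL1 is a helicase that unwinds G-quadruplex (G4) DNA and telomeric loops. A further Rtel1f/f group received Ad-GFP and, for 48 h, 10 µM TMPyP4, a porphyrin that stabilizes G4-DNA. In a pair of further groups, Rtel1f/f cells had been transduced with the mutant RTEL1 C1252A/C1255A (RTEL1 CA) and were infected with Ad-GFP or Ad-Cre, so that the control of this pair already expressed the mutant from a vector beside the endogenous gene. The last pair was Trf1f/f MEFs with Ad-GFP or Ad-Cre, in which Cre removes Trf1 (gene symbol Terf1), a subunit of shelterin. All of these cells therefore carried a floxed allele and an adenovirus. The number of embryos or clones behind each line was not given in the sources used here, so the spread between libraries may be partly technical, and in comparisons between lines the genotype, the transduction and the culture cannot be told apart.

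Libraries held 32069888 to 51938593 counts (median 43013208). Levels within a gene are in CPM, read counts scaled to library sizes that were normalized by the trimmed mean of M values (TMM). Levels between genes are in TPM, a measure scaled for transcript length. Terf1 fell from 29.3 ± 1.21 CPM in Trf1f/f Ad-GFP cells to 0.0608 ± 0.0434 CPM with Ad-Cre (SD, n = 3 each, as in all values below). Rtel1 was at 61.8 ± 3.83 CPM with Ad-GFP and 29.5 ± 2.56 CPM with Ad-Cre in Rtel1f/f cells, so transcript from the locus was still counted after Cre, and at 332 ± 4.80 and 265 ± 16.3 CPM in the RTEL1 CA groups, where vector transcripts are counted too. The Rtel1f/f Ad-GFP libraries stood apart. Their deviations from the group mean correlated little with those of same-numbered RTEL1 CA Ad-GFP libraries (Pearson's r of 0.0282, 0.0468 and 0.109 over 11840 genes), whereas Rtel1f/f Ad-Cre and TMPyP4 libraries of the same number deviated together (0.724, 0.758 and 0.409). Each difference of a family gene from Rtel1f/f Ad-GFP cells rests on these 3 libraries, and levels are therefore set beside the RTEL1 CA Ad-GFP libraries as well.

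Of 10 fibroblast markers, 9 were above 3 counts in some library of each Rtel1f/f group, with Thy1 at or under this floor in Rtel1f/f Ad-GFP cells and Fap in the other Rtel1f/f groups, and all 10 were measured in Trf1f/f cells. The summed fibroblast markers, mostly collagen genes, moved with the family, with 13062 to 13961 CPM in Rtel1f/f Ad-GFP, 4303 to 6628 in Rtel1f/f Ad-Cre, 6414 to 9464 in TMPyP4, 4981 to 8006 in RTEL1 CA Ad-GFP, 4142 to 6834 in RTEL1 CA Ad-Cre, 14817 to 21144 in Trf1f/f Ad-GFP and 15630 to 18765 in Trf1f/f Ad-Cre cells. Of 10 cartilage and bone markers, 8 were above the floor in Rtel1f/f Ad-GFP cells, where their sum was 154 to 190 CPM against 62.4 to 73.1 with Ad-Cre and 69.4 to 77.4 with TMPyP4. It was 67.1 to 75.8 CPM in RTEL1 CA Ad-GFP and 54.5 to 67.1 in RTEL1 CA Ad-Cre cells. In Trf1f/f cells it was 55.1 to 62.7 CPM with Ad-GFP and 51.6 to 58.2 with Ad-Cre. Of 6 smooth muscle markers, 5 were above the floor in Rtel1f/f Ad-GFP cells. Among the untransduced Rtel1f/f groups their sum went the other way, from 644 to 776 CPM in these cells to 939 to 1116 with Ad-Cre and 1729 to 1809 with TMPyP4. It was 1313 to 1469 CPM in RTEL1 CA Ad-GFP and 1151 to 1193 in RTEL1 CA Ad-Cre cells. In Trf1f/f cells it was highest, at 2895 to 3127 CPM with Ad-GFP and 2862 to 3510 with Ad-Cre. Over all 7 groups, neither this sum nor the cartilage and bone sum followed the order of Bgn, Ogn, Aspn and Podn. The 8 tendon markers summed to 759 to 816 CPM in Rtel1f/f Ad-GFP, 587 to 630 with Ad-Cre and 522 to 630 with TMPyP4. Their sum was 525 to 692 CPM in RTEL1 CA Ad-GFP and 496 to 622 in RTEL1 CA Ad-Cre cells. In Trf1f/f cells it was 934 to 1125 CPM with Ad-GFP and 911 to 1200 with Ad-Cre. Tnmd, Thbs4, Kera and Cilp were at or under the floor in all Rtel1f/f groups. Sums of epithelial, endothelial and blood markers stayed under 7 CPM in every library, with Ptprc, Adgre1 and Cd3e at or under the floor throughout. Fewer cells of a type and less RNA per cell cannot be told apart in such bulk libraries, and the part of these markers in the results was not tested.

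Most of the 9 genes lie in clusters of the family in the mouse genome (RefSeq, GRCm38.p6, the assembly behind mm10). Fmod lies at chr1:134037254-134048280 on the plus strand, 107.2 kb from Prelp at chr1:133910304-133930102 on the minus strand, which is 0.6 kb from its relative Optc. Aspn (chr13:49544443-49567565), Omd (chr13:49582462-49592612) and Ogn (chr13:49608015-49624501) follow each other on the plus strand after Ecm2, another gene with leucine-rich repeats, with gaps of 11.7, 14.9 and 15.4 kb between the 4 genes. Dcn (chr10:97479500-97518163) is 47.3 kb from Lum (chr10:97565501-97572703), followed by Kera and Epyc. Bgn (chrX:73483601-73495936, plus strand) and Podn (chr4:108014793-108031954, minus strand) have no family gene within 100 kb.

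The study asks how G4-DNA bears on transcription, so the 250 bases before the start of each gene are relevant, and RefSeq windows (GRCm38.p6) were at hand for 7 of the 9 genes. A G4 pattern was taken as 4 runs of at least 3 G, separated by loops of 1 to 7 bases, on either strand. Such a pattern was found before Bgn, Podn and Prelp, 3 of 7 genes, against 16.7% of all 32851 windows, and in the same 3 genes when loops of up to 12 bases were allowed, against 25.9% of windows. No pattern was found in the 250 bases before Fmod, Aspn, Omd or Ogn. The study predicted G4 otherwise, by a G4Hunter score and within a wider distance of the start, which was not repeated here. The letters TATAAA were found on either strand before Aspn and Ogn (12.4% of windows), 178 to 229 bases before the start and thus not at the place close to the start where a TATA element acts, and the GC box GGGCGG before Bgn and Podn (32.7% of windows), where some GC boxes overlap the G4 pattern. The windows of the gene with the largest fall upon Cre (Fmod), of its neighbour Prelp and of Aspn, Bgn and Podn are shown 5′ to 3′ along the gene, because they differ in base composition and in the pattern, with the bases of the G4 pattern in capitals, which are runs of C where the G runs are on the opposite strand. GC content was 51.2% for Fmod, 55.6% for Prelp, 30.0% for Aspn, 64.4% for Bgn and 78.0% for Podn, against a median of 52.4% over all windows. The window of Prelp precedes a start inside its annotated span, and Podn has a further start whose window also holds the pattern.
Fmod (chr1:134037004-134037253, plus strand): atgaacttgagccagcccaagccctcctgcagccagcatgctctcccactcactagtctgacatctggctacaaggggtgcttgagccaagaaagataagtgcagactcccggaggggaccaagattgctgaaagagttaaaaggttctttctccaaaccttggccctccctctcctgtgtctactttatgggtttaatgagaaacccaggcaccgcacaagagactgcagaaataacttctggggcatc
Prelp (chr1:133921402-133921651, minus strand): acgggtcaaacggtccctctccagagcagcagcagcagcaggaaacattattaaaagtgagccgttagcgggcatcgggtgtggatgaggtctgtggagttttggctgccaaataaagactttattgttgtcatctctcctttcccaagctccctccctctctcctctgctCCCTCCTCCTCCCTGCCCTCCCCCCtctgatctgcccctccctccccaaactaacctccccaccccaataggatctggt
Aspn (chr13:49544193-49544442, plus strand): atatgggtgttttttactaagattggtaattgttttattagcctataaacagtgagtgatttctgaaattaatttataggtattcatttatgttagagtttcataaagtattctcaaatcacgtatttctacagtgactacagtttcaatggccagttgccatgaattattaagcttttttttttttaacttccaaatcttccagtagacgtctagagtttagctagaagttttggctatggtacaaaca
Bgn (chrX:73483351-73483600, plus strand): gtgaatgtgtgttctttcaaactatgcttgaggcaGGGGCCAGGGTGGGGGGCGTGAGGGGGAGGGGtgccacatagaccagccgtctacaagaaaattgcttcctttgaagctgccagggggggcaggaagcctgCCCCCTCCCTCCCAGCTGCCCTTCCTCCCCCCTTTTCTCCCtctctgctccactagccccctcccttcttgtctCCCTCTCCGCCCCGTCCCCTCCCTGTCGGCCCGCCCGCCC
Podn (chr4:108031955-108032204, minus strand): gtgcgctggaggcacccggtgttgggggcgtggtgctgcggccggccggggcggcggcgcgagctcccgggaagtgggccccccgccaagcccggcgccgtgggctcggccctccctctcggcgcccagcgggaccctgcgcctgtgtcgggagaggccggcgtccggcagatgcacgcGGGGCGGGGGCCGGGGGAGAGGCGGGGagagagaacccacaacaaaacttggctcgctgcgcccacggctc

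In Rtel1f/f Ad-GFP cells, Bgn was by far the most abundant of the 9 genes. Its level was 1832 ± 87.5 TPM, which is 86.5% of the 2117 TPM (range 1954 to 2298) that the family reached together. Ogn followed with 169 ± 55.4 TPM and Fmod with 57.6 TPM (34.2, 74.8 and 63.7 in the 3 libraries), and each of these was above the next gene in every library. Dcn (16.5 ± 1.73 TPM), Prelp (15.8 ± 3.89), Omd (13.5 ± 4.42) and Aspn (11.7 ± 3.68) overlapped with their neighbours in this order. Podn stood at 1.00 ± 0.221 TPM, and Lum at 0.12, 0.07 and 0.02 TPM in the 3 libraries. The family total, which carries no TMM scaling between groups, was 1006 to 1196 TPM with Ad-Cre and 1234 to 1405 with TMPyP4. It was 932 to 995 TPM in RTEL1 CA Ad-GFP and 810 to 885 in RTEL1 CA Ad-Cre cells. In Trf1f/f cells it was 3060 to 3366 TPM with Ad-GFP and 2696 to 2870 with Ad-Cre. Bgn made up 94.6% of the family total in Rtel1f/f Ad-Cre and in TMPyP4-treated cells, 94.9% in RTEL1 CA Ad-Cre cells and a similar share in RTEL1 CA Ad-GFP cells, and 82.2% to 82.6% in Trf1f/f cells. The family RNA outside Bgn was thus a larger share in Rtel1f/f Ad-GFP and Trf1f/f cells than in the remaining groups.

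**Figure D1:**
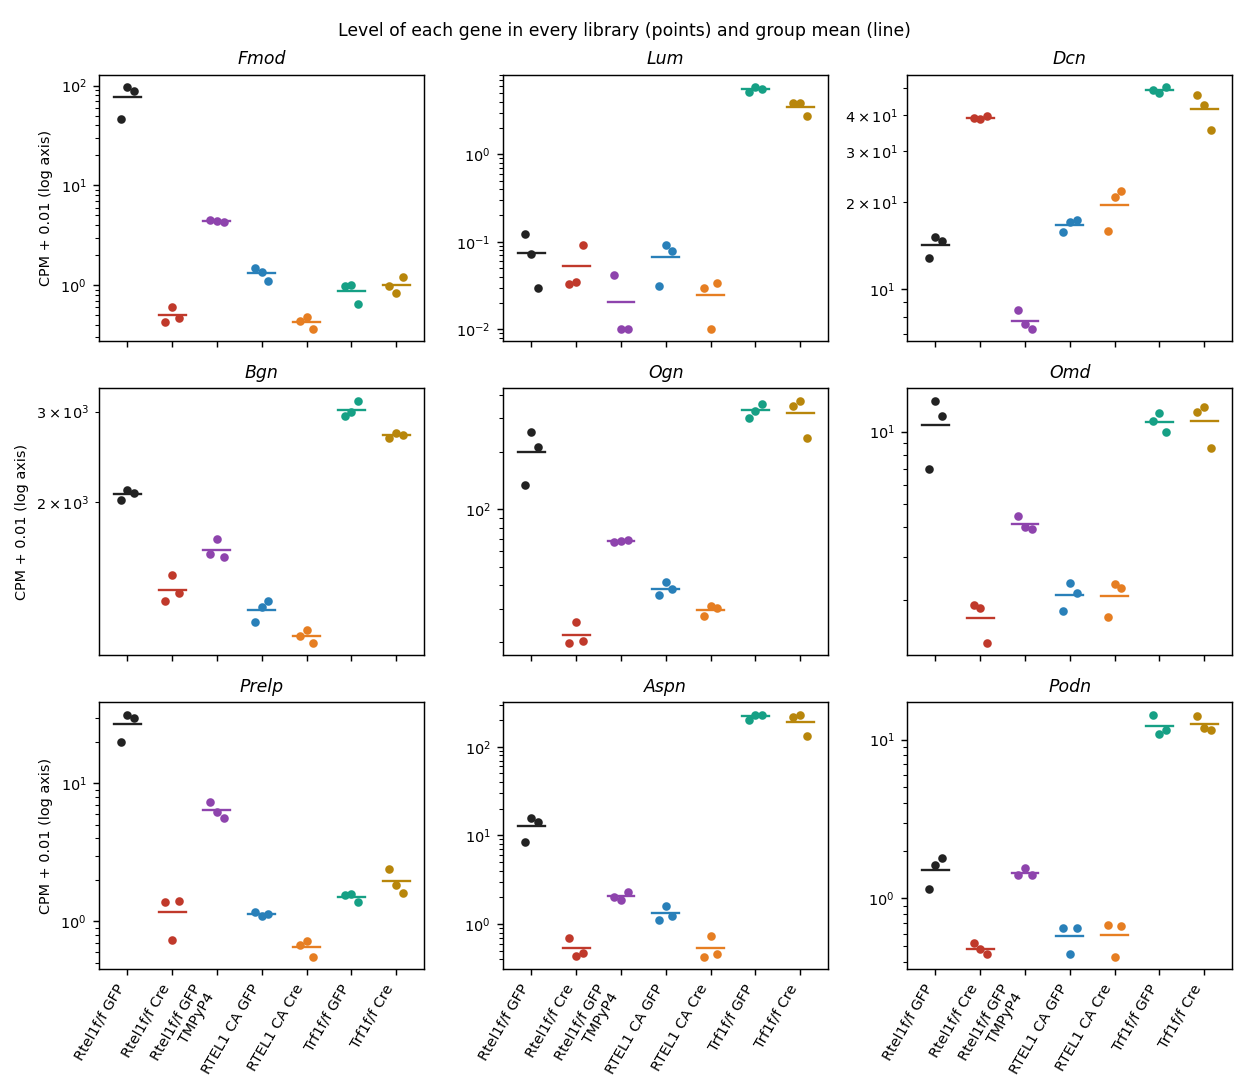
Level of each of the 9 genes (CPM on TMM-normalized library sizes plus 0.01, log axis, a scale of its own in each panel) in the 7 groups, where points are the 3 libraries and the line their mean. Fmod and Prelp have their highest group means in Rtel1f/f Ad-GFP cells (77.4 and 27.1 CPM on average), Lum is above 1 CPM in Trf1f/f cells alone, and Dcn is higher with Ad-Cre than with Ad-GFP in Rtel1f/f cells.

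Upon Ad-Cre in Rtel1f/f cells, 7 of the 9 genes were lower in each library than in any Ad-GFP library and Dcn was higher, and over all 13719 genes that passed the filter 32.1% were lower and 29.4% higher without overlap. Nothing is read from the family's count because this comparison chose it. The median log2 fold change was -2.67 for the 9 genes, with Lum included despite too few counts for a fold, and -0.03 for all genes.

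Among class II genes, Fmod, which binds type I collagen and guides its cross-linking, was at 46.7, 97.6 and 88.0 CPM in the Rtel1f/f Ad-GFP libraries and at 0.419, 0.596 and 0.464 CPM with Ad-Cre. Replicate 1 of the Ad-GFP group was the lowest of its group, but each Ad-GFP library was far above each Ad-Cre library, where Fmod rested on 17 to 24 counts. The log2 fold change was -7.29 (SE 0.28), or 156-fold lower, and -7.55 to -7.07 when any of the 6 libraries was dropped. Prelp, which links heparan sulfate of basement membranes to collagen, was at 19.9, 31.6 and 29.9 CPM with Ad-GFP and at 1.38, 0.720 and 1.39 CPM with Ad-Cre (log2 fold change -4.54, SE 0.23). Omd, a keratan sulfate proteoglycan of bone that binds mineral, was at 7.01, 13.4 and 11.6 CPM with Ad-GFP and at 1.89, 1.84 and 1.31 CPM with Ad-Cre (log2 fold change -2.67, SE 0.22). The groups stood clear of each other for both genes. Lum, known for the spacing of collagen in the cornea, had 5, 3 and 1 counts with Ad-GFP and 1, 1 and 3 with Ad-Cre, which is too few for a fold.

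Class I genes moved apart. Aspn, which carries no sulfate chain and binds collagen and TGF-β, was at 8.41, 15.7 and 14.1 CPM with Ad-GFP and at 0.676, 0.422 and 0.464 CPM with Ad-Cre (log2 fold change -4.59, SE 0.30). Bgn, which carries a pair of sulfate chains and signals through Toll-like receptors when soluble, was at 2016, 2113 and 2084 CPM with Ad-GFP and at 1285, 1440 and 1331 CPM with Ad-Cre, a log2 fold change of -0.62 (SE 0.06). Dcn, which binds collagen and holds TGF-β, was at 12.8, 15.1 and 14.6 CPM with Ad-GFP and at 39.3, 38.9 and 39.7 CPM with Ad-Cre. It was thus 2.77-fold higher (log2 fold change 1.47, SE 0.11), and all Ad-Cre libraries lay above all Ad-GFP libraries. The closest relatives of class I in these data were therefore lower by a small step (Bgn), lower by a large step (Aspn) and higher (Dcn).

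Ogn of class III, found in bone, cornea and vessel walls, was at 133, 255 and 211 CPM with Ad-GFP and at 19.8, 25.5 and 20.4 CPM with Ad-Cre (log2 fold change -3.19, SE 0.20). Podn of class V, a collagen-binding protein first described in kidney podocytes, was at 1.14, 1.60 and 1.78 CPM with Ad-GFP and at 0.513, 0.471 and 0.437 CPM with Ad-Cre (log2 fold change -1.66, SE 0.21). Both genes were lower in every Ad-Cre library than in any Ad-GFP library. For Fmod, Ogn, Omd, Aspn, Prelp and Podn the lowest of the Ad-GFP libraries was replicate 1. Without it the log2 fold changes were -7.55 for Fmod, -3.41 for Ogn, -2.89 for Omd, -4.72 for Prelp and -1.83 for Podn.

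With TMPyP4, Fmod, Prelp, Omd, Aspn, Ogn and Bgn were less far below the Rtel1f/f Ad-GFP libraries than with Ad-Cre. Dcn and Podn differed from those libraries otherwise. Without overlap, 7 of the 9 genes were below the Ad-GFP libraries and 0 above them, beside 28.5% lower and 29.3% higher over all genes. Nothing is read from this count either, as the comparison also chose the family, and it shares its Ad-GFP libraries with the Ad-Cre comparison. The median log2 fold change was -1.55 for the 9 genes, again with Lum included despite its few counts, and -0.01 for all genes. Fmod was at 4.50, 4.38 and 4.30 CPM with TMPyP4, a log2 fold change of -4.14 (SE 0.22) or 17.6-fold lower. Prelp (7.35, 6.17 and 5.64 CPM, log2 fold change -2.09, SE 0.19) and Omd (4.44, 4.02 and 3.94 CPM, log2 fold change -1.37, SE 0.21) lay between the Ad-GFP and the Ad-Cre levels in every library.

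Aspn was at 2.00, 1.83 and 2.29 CPM with TMPyP4 (log2 fold change -2.64, SE 0.25) and Ogn at 67.6, 68.1 and 68.9 CPM (log2 fold change -1.55, SE 0.19), again between the other groups. Bgn was at 1586, 1693 and 1561 CPM (log2 fold change -0.36, SE 0.06). Dcn and Podn were the exceptions to this order. Dcn was at 8.43, 7.56 and 7.24 CPM, below all Ad-GFP libraries (log2 fold change -0.87, SE 0.12), whereas it was above them with Ad-Cre. Podn was at 1.39, 1.54 and 1.39 CPM, inside the range of the Ad-GFP libraries (log2 fold change -0.07, SE 0.19). Lum had 1, 0 and 0 counts.

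Set directly against TMPyP4, Ad-Cre libraries were below all TMPyP4 libraries for 7 genes (Fmod, Bgn, Ogn, Omd, Prelp, Aspn and Podn; 20.2% of all genes were lower without overlap) and above them for Dcn (17.6% higher). The log2 fold change of Ad-Cre against TMPyP4 was -3.15 (SE 0.27) for Fmod, -2.45 (SE 0.22) for Prelp, -1.96 (SE 0.35) for Aspn, -1.64 (SE 0.19) for Ogn and -1.60 (SE 0.22) for Podn. It was smallest for Bgn, at -0.25 (SE 0.06), and 2.35 (SE 0.12) for Dcn. The sizes of both treatments cannot be ranked as doses, since the agents and the exposure times differ.

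**Figure D2:**
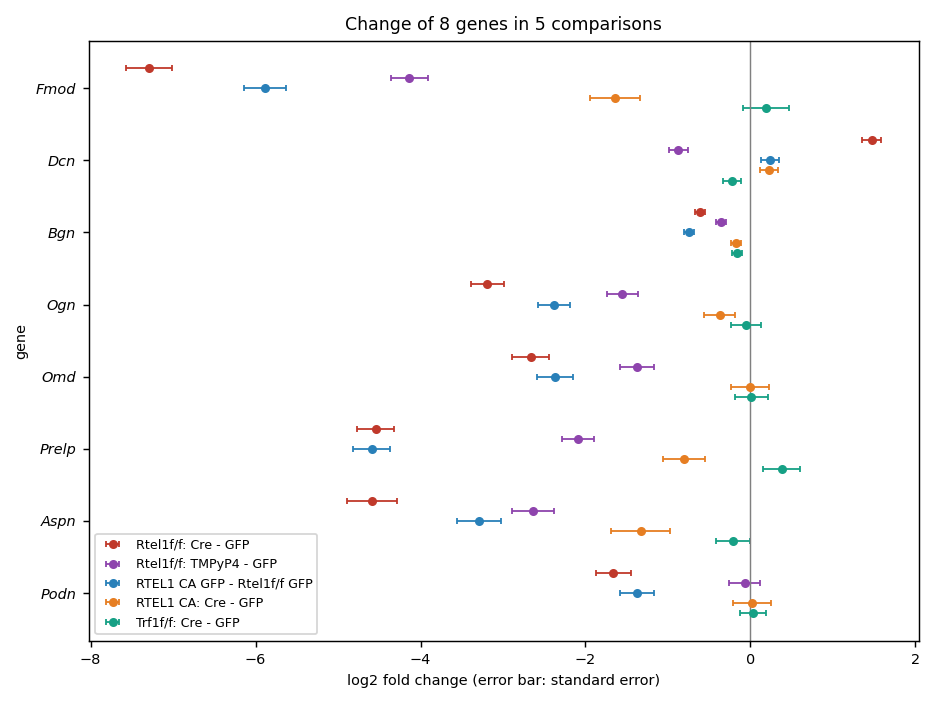
Log2 fold change (x axis) of 8 of the 9 genes in 5 comparisons, with the standard error of the edgeR fit as bars; Lum is left out because it had 5 counts or fewer in each Rtel1f/f library. Fmod is at -7.29 upon Ad-Cre, -4.14 upon TMPyP4 and -5.89 in RTEL1 CA Ad-GFP cells, all against Rtel1f/f Ad-GFP, while the changes upon Ad-Cre in Trf1f/f cells lie near 0.

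Before any Cre, the cells that expressed RTEL1 CA already had low levels of most of these genes. In RTEL1 CA Ad-GFP cells Fmod was at 1.46, 1.36 and 1.10 CPM, with a log2 fold change of -5.89 (SE 0.25) against Rtel1f/f Ad-GFP cells, and Prelp at 1.16, 1.09 and 1.12 CPM (log2 fold change -4.59, SE 0.23). Aspn was at 1.10, 1.60 and 1.23 CPM (-3.29, SE 0.26), Ogn at 35.4, 41.5 and 37.9 CPM (-2.39, SE 0.20), Omd at 1.79, 2.33 and 2.12 CPM (-2.36, SE 0.22), Podn at 0.646, 0.434 and 0.640 CPM (-1.38, SE 0.21) and Bgn at 1170, 1249 and 1286 CPM (-0.75, SE 0.06). Dcn, at 15.7, 17.1 and 17.3 CPM, was above all Rtel1f/f Ad-GFP libraries by a log2 fold change of 0.24 (SE 0.11), and Lum had 1, 3 and 3 counts. Without overlap, 7 of the 9 genes were lower and 1 higher, beside 33.0% and 30.5% of all genes. This comparison shares its Rtel1f/f Ad-GFP libraries with those that chose the family and is a description. The line with the vector and the line without it cannot be told apart from the effect of the mutant.

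Against RTEL1 CA Ad-GFP cells, the other Rtel1f/f groups looked different. Rtel1f/f Ad-Cre libraries were below all RTEL1 CA Ad-GFP libraries for 3 of the 9 genes, Fmod, Ogn and Aspn, and above them for Dcn, beside 12.4% of all genes lower and 11.9% higher without overlap. TMPyP4 libraries were above all RTEL1 CA Ad-GFP libraries for 7 genes (Fmod, Bgn, Ogn, Omd, Prelp, Aspn and Podn) and below them for Dcn, beside 21.3% higher and 19.0% lower over all genes. Fmod at 4.30 to 4.50 CPM with TMPyP4 thus stood below Rtel1f/f Ad-GFP cells and above RTEL1 CA Ad-GFP cells. Which of the 2 kinds of control cell is taken therefore turns the direction of the TMPyP4 difference for Fmod, Bgn, Ogn, Omd, Prelp and Aspn.

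Ad-Cre in RTEL1 CA cells removes the endogenous gene while the mutant stays, and its libraries took no part in the choice of the family. Here 1 of the 9 genes was called at an adjusted p of up to 0.01, Fmod, which was lower, beside 0.569% of all genes called lower and 0.525% higher (1.09% in all). Fmod was at 1.46, 1.36 and 1.10 CPM with Ad-GFP (48 to 68 counts) and at 0.431, 0.466 and 0.352 CPM with Ad-Cre (15 to 22 counts), so that the groups did not overlap at levels far below those of Rtel1f/f Ad-GFP cells. The log2 fold change was -1.64 (SE 0.30), with an adjusted p of 0.0044 by edgeR's quasi-likelihood test, and lower in 3 of 3 same-numbered pairs. The call did not hold with the replicate number as a block, which pairs these libraries (adjusted p = 0.0111), nor with only these 6 libraries in the fit (0.0839), while DESeq2 gave an adjusted p of 2.4e-05. When any of the 6 libraries was dropped, the log2 fold change was -1.76 to -1.54 and the adjusted p 0.00995 to 0.0364, and it stayed under 0.01 only without RTEL1 CA Ad-GFP replicate 3.

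The other family genes did not pass in this comparison. Aspn was at 1.10, 1.60 and 1.23 CPM with Ad-GFP and at 0.412, 0.712 and 0.446 CPM with Ad-Cre (log2 fold change -1.33, SE 0.36, adjusted p = 0.0548 by edgeR, and 0.000932 by DESeq2). Prelp was at 1.12 ± 0.0388 and 0.639 ± 0.0891 CPM (log2 fold change -0.81, SE 0.25, edgeR adjusted p = 0.0975), Ogn at 38.3 ± 3.06 and 29.6 ± 1.88 CPM (-0.37, SE 0.19, edgeR adjusted p = 0.405) and Bgn at 1235 ± 59.2 and 1096 ± 33.2 CPM (-0.17, SE 0.06, edgeR adjusted p = 0.132). With Fmod, these 4 genes were the ones whose Ad-Cre libraries lay below all Ad-GFP libraries, 5 of 9 beside 7.15% of all genes, and 0 lay above them without overlap, beside 9.04%. Omd (log2 fold change -0.01, SE 0.23), Podn (0.01, SE 0.23) and Dcn (0.23, SE 0.11, edgeR adjusted p = 0.380) had overlapping groups. The median over the 9 genes, with Lum included despite its few counts, was -0.37, and that of all genes was 0.00.

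Once Cre was present, the RTEL1 CA line and Rtel1f/f cells came close for several genes. Fmod was at 0.417 ± 0.0585 CPM in RTEL1 CA Ad-Cre and 0.493 ± 0.0915 CPM in Rtel1f/f Ad-Cre cells (log2 fold change -0.24, SE 0.35), and Aspn at 0.523 ± 0.164 and 0.521 ± 0.136 CPM (-0.02, SE 0.42). Dcn differed, with 15.9, 20.9 and 21.8 CPM in RTEL1 CA Ad-Cre against 38.9 to 39.7 CPM in Rtel1f/f Ad-Cre cells (-1.01, SE 0.11). Bgn, Prelp and Dcn were lower and Ogn higher without overlap in RTEL1 CA Ad-Cre cells, 3 and 1 of the 9 genes beside 7.52% and 9.48% of all genes. The difference between the effects of Cre in Rtel1f/f and in RTEL1 CA cells was -5.65 (SE 0.44) for Fmod, -3.73 (SE 0.34) for Prelp and 1.25 (SE 0.16) for Dcn on the log2 scale, as a description.

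Trf1f/f cells had another balance of the family. In Ad-GFP libraries Aspn was at 202, 231 and 228 CPM, Ogn at 302, 329 and 359, Podn at 14.4, 10.9 and 11.4, Dcn at 48.9, 48.0 and 50.3 and Bgn at 2936, 2989 and 3150 CPM, all above every Rtel1f/f Ad-GFP library. Fmod, at 0.974, 0.988 and 0.645 CPM, and Prelp, at 1.55, 1.56 and 1.36 CPM, were below every Rtel1f/f Ad-GFP library. The log2 fold change of Trf1f/f Ad-GFP against Rtel1f/f Ad-GFP cells was 4.12 (SE 0.23) for Aspn and 3.01 (SE 0.18) for Podn, but -6.47 (SE 0.26) for Fmod and -4.18 (SE 0.22) for Prelp. Of the 9 genes, 6 were higher and 2 lower without overlap, beside 38.4% and 34.2% of all genes, with Lum among the 6, a gene that had to be higher because it passed the filter through Trf1f/f libraries. High Fmod and Prelp were thus a feature of Rtel1f/f Ad-GFP and, to a lesser extent, TMPyP4-treated cells among the 7 groups, whereas Omd overlapped between both untransduced lines (10.7 ± 3.31 and 11.0 ± 1.00 CPM).

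Lum was measurable in Trf1f/f cells alone, with 220, 258 and 225 counts (5.10, 5.93 and 5.58 CPM) in the Ad-GFP libraries and 177, 167 and 102 counts (3.88, 3.83 and 2.73 CPM) with Ad-Cre. Against the 9 counts of Rtel1f/f Ad-GFP cells, the summed counts of Trf1f/f Ad-GFP cells gave a ratio of 88.3 for equal library sizes. This ratio is a description only, because Lum passed the filter through the Trf1f/f libraries. Between RTEL1 CA Ad-GFP and Trf1f/f Ad-GFP cells, whose libraries did not choose the family, 6 of the 8 genes other than Lum were called lower and 0 higher, where 31.9% of all genes were lower and 26.6% higher (58.5% in all). Aspn had the largest of these differences (log2 fold change -7.41, SE 0.29, edgeR adjusted p = 5.7e-13), followed by Podn (-4.39, SE 0.20, edgeR adjusted p = 1.1e-12) and Ogn (-3.11, SE 0.20, edgeR adjusted p = 3.2e-10). Lum, with 7 counts in all RTEL1 CA Ad-GFP libraries, is left out because it passed the filter through the Trf1f/f libraries and so had to be lower. Fmod (0.58, SE 0.27, edgeR adjusted p = 0.065) and Prelp (-0.41, SE 0.23, edgeR adjusted p = 0.127) did not pass, although their groups did not overlap. Without overlap, 7 of these 8 genes were lower and 1 (Fmod) higher, beside 38.2% and 32.4% of all genes.

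Removal of Trf1 came with small changes of the family, none of which passed the test. Upon Ad-Cre in Trf1f/f cells 0 of the 9 genes were called by edgeR and 0 by DESeq2. Over all genes edgeR called 3.42%, 2.65% higher and 0.765% lower. An unadjusted edgeR p under 0.05 was found for 2 of the 9 genes (Lum and Bgn), beside 2369 of all 13719 genes. Lum had the lowest adjusted p, 0.0806 by edgeR (log2 fold change -0.67, SE 0.22, lower in all Ad-Cre libraries). Fmod was at 0.965, 0.825 and 1.20 CPM with Ad-Cre, overlapping the Ad-GFP values (log2 fold change 0.19, SE 0.28, edgeR adjusted p = 0.832). Aspn was at 215, 226 and 131 CPM, Ogn at 348, 372 and 235 CPM and Omd between 8.51 and 12.6 CPM with Ad-Cre. Replicate 3 was the lowest for these 3 genes, and the other 2 libraries lay at or near the Ad-GFP values. The groups did not overlap for Lum, Dcn and Bgn (lower) and Prelp (higher), 3 and 1 of 9 beside 13.8% and 13.1% of all genes, which is a small number of genes to set beside these shares.

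The effect of Cre in Trf1f/f cells minus that in RTEL1 CA cells was tested for each gene. At the threshold of 0.01, edgeR called 0 of the 9 genes and DESeq2 called Fmod. Of all genes, 0.620% were called by edgeR (0.547% higher and 0.0729% lower). An unadjusted edgeR p under 0.05 was found for 4 of the 9 genes (Fmod, Dcn, Prelp and Aspn), beside 1416 of all 13719 genes. For Fmod the difference was 1.83 on the log2 scale (SE 0.41, edgeR adjusted p = 0.0292, with 0.00183 to 0.0949 over the alternatives), for Prelp 1.19 (SE 0.34, edgeR adjusted p = 0.0994) and for Aspn 1.11 (SE 0.41, edgeR adjusted p = 0.277). The Cre effects of both lines on Fmod were thus not shown to differ at this threshold by edgeR, while DESeq2 called the difference, so the result depends on the tool.

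Within 100 kb of the 9 genes, 8 genes outside the family were tested. Upon Ad-Cre in Rtel1f/f cells 4 of them rose and 1 fell, beside 22.0% and 21% of all genes (43.0% called in all), and with TMPyP4 3 rose and 0 fell, beside 16.6% and 13.4% (30.0% in all). Their difference from the family genes was not tested. Beside the chromosome 13 cluster, Nol8, a nucleolar protein gene 28577 bases from Ogn, rose by a log2 fold change of 0.88 upon Ad-Cre (SE 0.09, edgeR adjusted p = 3.8e-07) and Iars, an isoleucyl-tRNA synthetase gene, by 0.65 (SE 0.09, edgeR adjusted p = 1.2e-05). Cenpp, a centromere protein gene, spans the whole cluster on the opposite strand and fell by 0.41 (SE 0.11, edgeR adjusted p = 0.0043), against log2 fold changes of -4.59, -2.67 and -3.19 for Aspn, Omd and Ogn within it. The counting was set to use the strand of the reads per the study's methods, which separates Cenpp from the genes inside it. Btg2, 26585 bases from Fmod, had a log2 fold change of 0.13 (SE 0.13, edgeR adjusted p = 0.419). Ad-Cre called 0 of these 8 genes in RTEL1 CA and in Trf1f/f cells.

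**Figure D3:**
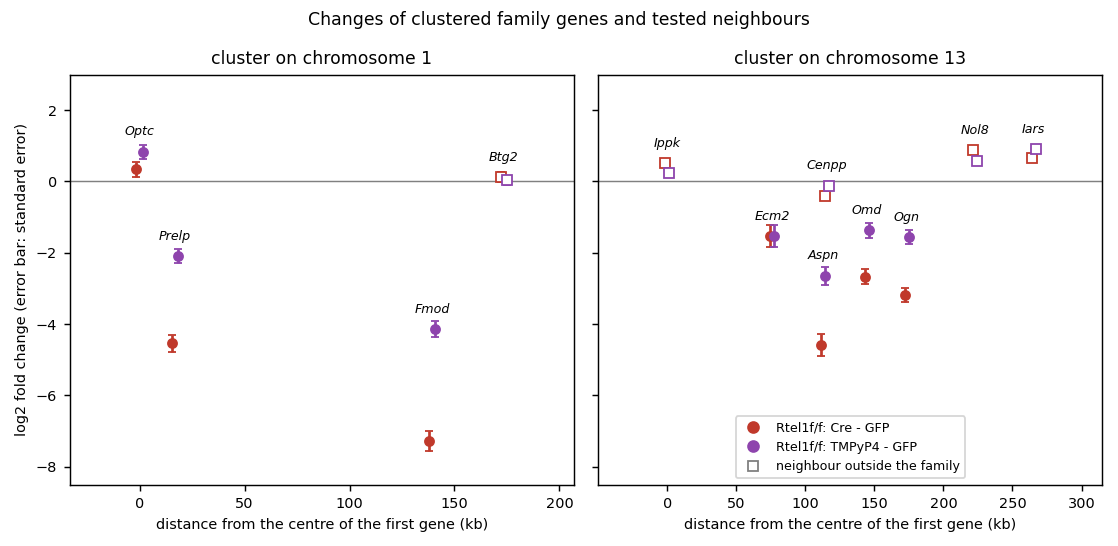
Log2 fold change upon Ad-Cre (red) and TMPyP4 (purple) in Rtel1f/f cells against the distance from the centre of the first gene plotted (kb), for family genes (filled circles) and tested genes outside the family (open squares) in the clusters on chromosomes 1 and 13; bars on the circles are standard errors. Prelp, Fmod, Aspn, Omd and Ogn lie below the squares in both comparisons, and the squares for Nol8 and Iars are above 0.

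Of 9 further family genes, 6 were tested, with medians of -0.22 upon Ad-Cre and -0.18 with TMPyP4. They took no part in the choice of the 9 genes, but were listed with earlier results of these data known. Ecm2 fell upon Ad-Cre (log2 fold change -1.52, SE 0.30, edgeR adjusted p = 0.00036) and TMPyP4 (-1.54, SE 0.31, edgeR adjusted p = 0.00061), and Optc, the eye protein opticin, rose with TMPyP4 (0.84, SE 0.20, edgeR adjusted p = 0.0032). Optc thus rose 0.6 kb from Prelp, which was 4.26-fold lower. Optc was at 0.370 CPM on average with Ad-GFP and 0.654 CPM with TMPyP4, and its call was lost with DESeq2 (adjusted p = 0.0203), with only the groups compared in the fit (edgeR adjusted p = 0.0283) and without Rtel1f/f Ad-GFP replicate 2 or 3 or TMPyP4 replicate 2 or 3 (edgeR adjusted p of 0.017 to 0.0316). Ecm2 was called under each of these settings.

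Genes that act on the family's chains, fibrils and ligands were counted in 8 lists with 125 tested genes, written with earlier results of these data known. Upon Ad-Cre in Rtel1f/f cells 68 of them were called, 55 lower and 13 higher, 54.4% beside 43.0% of all genes, and with TMPyP4 51 were called, 42 lower and 9 higher, 40.8% beside 30.0%. In Rtel1f/f cells without Ad-GFP replicate 2 the TMPyP4 count was 37, its lowest. Ad-Cre called 2 of the 125 genes in RTEL1 CA cells (1.60% beside 1.09% of all genes), 0 to 3 with a library left out, 11 with DESeq2, 4 with the replicate block and 0 with only the groups compared. In Trf1f/f cells it called 5 (4.0% beside 3.42%), 1 to 4 with a library left out, 10 with DESeq2, 9 with the replicate block and 6 with only the groups compared. The 5 were Sdc4, Loxl3, Kdr and Cd44, which rose, and Tgfbi, which fell.

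For the chains themselves, 8 of 23 genes of chondroitin and dermatan sulfate synthesis fell upon Ad-Cre and 1 rose, and 6 fell with TMPyP4, with medians of -0.39 and -0.35. Chst3, a chondroitin 6-O-sulfotransferase, fell by 1.68 on the log2 scale (SE 0.15, edgeR adjusted p = 5.3e-08) upon Ad-Cre and by 0.81 with TMPyP4. Chst15, which adds a further sulfate, fell by 1.42 upon Ad-Cre (SE 0.10, edgeR adjusted p = 5.2e-09), and Chst11, a 4-O-sulfotransferase, rose by 0.84 (SE 0.07, edgeR adjusted p = 4.7e-08). Xylt1, which starts the chain on the core protein, fell by 2.19 with TMPyP4 (SE 0.43, edgeR adjusted p = 0.00054). Of 12 genes of keratan sulfate synthesis and sulfation, 5 fell and 0 rose in each of these comparisons, with medians of -0.18 and -0.29, among them Chst1, the keratan sulfate sulfotransferase (-0.88 and -0.77), and Papss2, which makes the sulfate donor (-0.77 and -0.67, edgeR adjusted p = 5.9e-07 and 7.6e-06).

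Of 19 genes of fibril collagens and cross-linking enzymes, 12 fell and 1 rose upon Ad-Cre, and 8 fell and 1 rose with TMPyP4, with medians of -0.93 and -0.73. Upon Ad-Cre and TMPyP4, log2 fold changes were -4.26 and -3.14 for Col14a1, a fibril-associated collagen, -2.35 and -1.20 for Col3a1 and -2.01 and -1.12 for Col11a1 (each with an edgeR adjusted p of at most 7.7e-06). Col3a1 also fell in RTEL1 CA cells upon Ad-Cre (-0.83, SE 0.14, edgeR adjusted p = 0.003), though not without RTEL1 CA Ad-Cre replicate 2 or 3 or RTEL1 CA Ad-GFP replicate 1 (edgeR adjusted p of 0.0107 to 0.0143), nor with only these groups in the fit (0.174). Of 22 other proteoglycan genes, 9 fell and 2 rose upon Ad-Cre and 8 fell and 1 rose with TMPyP4 (medians of -0.72 and -0.60), where aggrecan (Acan) fell by 1.22 on the log2 scale and versican (Vcan) rose by 0.74 (edgeR adjusted p = 7.4e-05 and 0.0012).

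Of 20 genes of TGF-β ligands, receptors and targets, 12 fell and 4 rose upon Ad-Cre, and 5 fell and 3 rose with TMPyP4, with medians of -0.87 and -0.21. Tgfbi, a matrix protein induced by TGF-β, fell in both, by 2.38 on the log2 scale upon Ad-Cre (edgeR adjusted p = 1.7e-11, and 1.7e-08 with TMPyP4), while Ctgf, another target, rose by 1.34 with TMPyP4 (SE 0.09, edgeR adjusted p = 7.9e-09). Tgfbi was also the gene of this list that fell in Trf1f/f cells upon Ad-Cre (-0.60, SE 0.11, edgeR adjusted p = 0.0013). Of 11 receptors of these proteoglycans, 3 fell upon Ad-Cre and 4 with TMPyP4 (medians of 0.03 and -0.28). Tlr2, which binds biglycan, fell upon Ad-Cre and TMPyP4 (log2 fold change -1.42 and -1.25, edgeR adjusted p = 1.6e-08 and 2.7e-07), and 3 rose upon Ad-Cre, among them Cd44 (1.12, edgeR adjusted p = 2.4e-08). Of 12 proteases that cut or process them, 5 fell in each comparison and 2 rose upon Ad-Cre and 3 with TMPyP4, with medians of -0.39 and -0.48. Adamts4 and Adamts5 fell upon Ad-Cre (log2 fold change -1.40 and -1.04), Tll1, a protease of the BMP1 family, rose by 1.68 and 2.20, and Mmp13 fell by 5.59 on the log2 scale with TMPyP4 (SE 0.96, edgeR adjusted p = 0.00023).

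**Figure D4:**
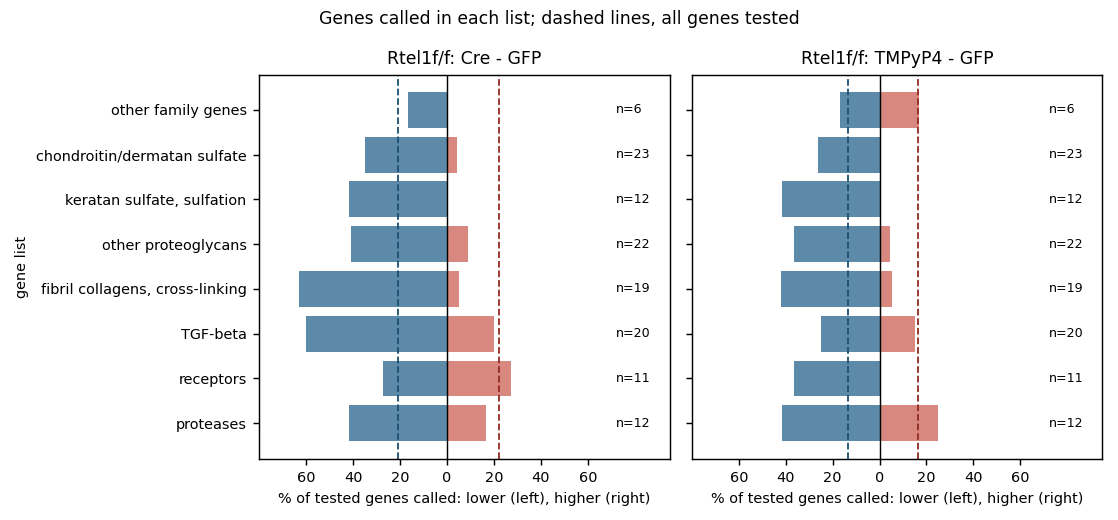
Share of the tested genes of each of 8 lists called lower (bars to the left) and higher (bars to the right) upon Ad-Cre and upon TMPyP4 in Rtel1f/f cells, with the number tested; dashed lines are the shares over all genes (21% lower and 22.0% higher upon Ad-Cre, 13.4% and 16.6% with TMPyP4). In the fibril collagen list, 12 of 19 genes are lower upon Ad-Cre.

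Across the 21 libraries, log2 CPM of the family fell into patterns that the between-line differences dominate, given as a description with single libraries as the points, of which 3 share each group. Ogn and Omd, neighbours on chromosome 13, had a Pearson's r of 0.98, Fmod and Prelp of 0.96, and Aspn of 0.97 with both Podn and Bgn. Fmod had an r of 0.01 with Podn and of -0.54 with Dcn. Among 10232 other genes that averaged 5 CPM or more, Ndnf (r = 0.970), Nov (0.966), Fut10 (0.965), Lxn (0.963) and Rictor (0.962) were most like Fmod, and Ndnf (0.982), Nov (0.975) and Lxn (0.971) most like Prelp. Ndnf, a secreted neurotrophic factor, was at 131 CPM on average in Rtel1f/f Ad-GFP, 5.17 with Ad-Cre, 36.5 with TMPyP4, 7.78 and 3.77 in RTEL1 CA Ad-GFP and Ad-Cre, and 8.76 and 8.10 CPM in Trf1f/f Ad-GFP and Ad-Cre cells. Nov, a CCN family matrix protein, followed the same order at the top, with 88.3 CPM in Rtel1f/f Ad-GFP and 31.8 CPM in TMPyP4-treated cells. For Ogn the most alike genes were Fam46a (0.988) and Tcaf1 (0.987), for Omd Osmr (0.986), for Aspn Epha7 (0.992), for Podn Ccdc136 (0.995), for Bgn Rin2 (0.992), for Lum Cdh10 and Lgr5 (0.986 each) and for Dcn the chemokine gene Cxcl1 (0.917), the lowest of these values. Nothing is read from the values for Lum, which was measurable in Trf1f/f cells alone and passed the filter through them. Cdh10 likewise averaged 25.5 CPM in Trf1f/f Ad-GFP and 0.0135 CPM in Rtel1f/f Ad-GFP cells.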

How the data were processed

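RNA-seq of 21 MEF libraries was analysed in 7 groups of 3, taken from the labels. Per the labels and the study's methods, the authors trimmed the reads (cutadapt 1.9.1), aligned them (STAR 2.5.2a) and estimated expression per RefSeq gene of mm10 (RSEM 1.3.0), with strand taken into account. They deposited expected counts, which were not normalized and were all whole numbers (0 were not), and TPM values, which RSEM scales by transcript length and which keep no depth. The expected counts would be rounded if not whole, which changed nothing here. Read length is given as 101 bp in the labels and differs in the methods, which the counts do not settle.

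The family genes, the lists and the thresholds were chosen with earlier results of these data known. Expected counts were analysed with edgeR 4.0.16 in R 4.3.3 (TMM scaling and filterByExpr by group, which left 13719 genes). The 21 libraries entered 1 robust quasi-likelihood model with a term for each group and 14 residual degrees of freedom, tests were two-sided, and p-values were adjusted by Benjamini-Hochberg over all genes tested, with calls made up to an adjusted p of 0.01. CPM used TMM-normalized library sizes. TPM was used as deposited, without TMM scaling, to compare genes and to give the family total of each group. Up to 3 counts per library were taken as the floor. Log2 CPM for correlations used a prior count of 2. From each list, called genes with the largest absolute change, at most 4 per comparison, could be named, and for each family gene the 5 most alike genes; 1 gene so chosen is not reported here.

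Pairing by replicate number was checked by correlating deviations from group means of same-numbered libraries (11840 genes that averaged 1 CPM or more), and taken to hold where all 3 exceeded 0.1. It held for RTEL1 CA Ad-Cre and Ad-GFP (0.864, 0.839 and 0.424) for Rtel1f/f Ad-Cre and TMPyP4, and between RTEL1 CA Ad-GFP and each of these 2 groups; the block was fitted within each line only. The analysis was repeated with DESeq2 1.42.0, with edgeR on DESeq2's scaling, without a low-count filter, and with only the groups compared, the replicate block, an adjusted p of 0.05, each library left out, CPM on library totals and longer G4 loops. The fit was tested on simulated data. Figures were drawn with Python 3.11.15 and matplotlib 3.10.9. Promoters and positions came from RefSeq tables of GRCm38.p6.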

Additional observations from a re-analysis of the deposited data

Results flagged for a closer look

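A pair of family genes had log2 fold changes of opposite sign upon Ad-Cre in Rtel1f/f and in Trf1f/f cells. In both lines every Ad-Cre library lay on the far side of its Ad-GFP group. Over all genes, 32.1% were lower and 29.4% higher without overlap in Rtel1f/f cells, and 13.8% and 13.1% in Trf1f/f cells. The difference between the lines was not tested because the Rtel1f/f libraries took part in the choice of the genes. Dcn had a log2 fold change of 1.47 in Rtel1f/f cells and of -0.22 in Trf1f/f cells. Prelp had a log2 fold change of -4.54 in Rtel1f/f cells and of 0.38 in Trf1f/f cells. In Trf1f/f cells neither gene passed the adjusted threshold in edgeR (adjusted p of 0.318 for Dcn and 0.429 for Prelp), so no direction is read from them there.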

How the results depend on the processing

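Between RTEL1 CA and Trf1f/f control cells, 7 family genes were called in the main analysis, beside 58.5% of all genes, and 7 under every alternative run. Lum is among the 7, and nothing is read from its call because it passed the filter through the Trf1f/f libraries. No called fold change of a family gene turned its sign. In RTEL1 CA cells upon Ad-Cre, the number of family genes called was 1 in the main analysis, 2 with DESeq2, 0 with only the groups compared and 0 with the replicate block, and 0 to 1 with a library left out. The same comparison called 150 genes in all, 337 with DESeq2, 416 at an adjusted p of 0.05, 52 to 149 with a library left out (under 100 without RTEL1 CA Ad-Cre replicate 2 or 3 or RTEL1 CA Ad-GFP replicate 1 or 3) and 0 with only the groups compared, where 1256 genes had an unadjusted p under 0.05. With the replicate block, which pairs these libraries, it called 215 genes; the block changed no other number of family genes called. TMPyP4 called 4114 genes in all and 2466 to 4110 with a library left out, the lowest without Rtel1f/f Ad-GFP replicate 2 (2710 without replicate 3). Ad-Cre in Trf1f/f cells called 469 genes, 872 at an adjusted p of 0.05 and 282 to 377 with a library left out (lowest without Ad-Cre replicate 1 or Ad-GFP replicate 2). The difference of Cre effects between Trf1f/f and RTEL1 CA cells called 85 genes, 189 with DESeq2, 11 with only the groups compared, 195 at an adjusted p of 0.05 and 27 to 89 with a library left out. Of the family genes it called 0, but 1 with DESeq2 and 1 at an adjusted p of 0.05. The cause of these moves was not tested, apart from the smaller fits, which hold fewer libraries. On library totals instead of TMM sizes, 4 group means of the family moved by more than the spread between libraries. Depth limited Lum in Rtel1f/f cells, and Fmod, Prelp, Aspn and Podn rested on 15 to 68 counts per library in Rtel1f/f Ad-Cre and both RTEL1 CA groups.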
